A study of Mus musculus with 60 samples.

Results

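The 45 genes described here form the transcriptional programme of amino acid stress around the transcription factor ATF4, and they were taken from the count tables by gene symbol, 45 of 54532 genes listed for each NMuMG experiment and 45 of 55487 listed for 4T1. By role they comprise 5 transcription regulators, 6 stress effectors and feedback genes, 7 enzymes of serine synthesis and one-carbon metabolism, 7 other amino acid enzymes, 7 amino acid transporters, and 12 cytosolic tRNA synthetases together with the tRNA exporter gene Xpot. RNA was sequenced from 60 libraries in 20 groups of 3, labelled as biological replicates. The NMuMG line grew out of normal mouse mammary epithelium and turns mesenchymal under TGFβ, whereas the 4T1 line came from a mouse mammary tumour. Experiment 1 held NMuMG cells labelled sgPBRM1 (PBRM1 knockout) and sgCT (control) at 0, 24, 48 and 72 h of TGFβ1 at 5 ng/ml. Experiment 2 held NMuMG cells labelled shATF3 (ATF3 knockdown) and pLKO (control) at the same times and dose. Experiment 3 held 4T1 cells labelled shPBRM1 (PBRM1 knockdown) and pLKO (control), with 4 d of TGFβ1 at 5 ng/ml or without treatment. PBRM1 is a subunit of the PBAF chromatin remodelling complex, and ATF3 is a stress-induced transcription factor. The sources used here do not give whether an altered population is 1 clone or a pool, nor how many guides or hairpins it carries. Every later NMuMG group received TGFβ1, and its effect and that of culture time cannot be told apart. The untreated 4T1 libraries carry 0 h in their titles, whereas the labels' protocols have 4T1 cells plated for 4 d either with the ligand or without it, so the sources do not settle whether culture time changed with TGFβ1 there too.

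When amino acids run short, or unfolded proteins accumulate in the endoplasmic reticulum, kinases such as GCN2 and PERK phosphorylate the translation initiation factor eIF2. General translation then slows while ATF4 mRNA is translated more efficiently, and ATF4, bound to DNA with C/EBP family partners, activates genes for amino acid uptake and synthesis, tRNA charging and negative feedback. ATF4 is controlled to a large part at the level of translation, so its mRNA level is not a measure of its activity.

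Levels are CPM, the count divided by the library's total after TMM scaling and given per 1e+06 counts, and differences are log2 fold changes from edgeR's quasi-likelihood test with Benjamini-Hochberg adjustment over all genes tested and a threshold of 0.05. Values in parentheses after levels are log2 fold changes with their standard error (SE). A member "passed" where its adjusted p was under that threshold. Of the 45 members, 44 were tested in each NMuMG experiment and 45 in 4T1. The member left out in NMuMG was Aldh1l2, a mitochondrial folate enzyme gene, which had 0.07101 CPM in untreated sgCT cells and 0.06200 CPM in untreated pLKO cells. Slc7a3, a cationic amino acid transporter gene, was tested but stood near 1 CPM throughout, at 0.629 CPM in untreated sgCT cells and 0.924 CPM in untreated 4T1 pLKO cells. Per kilobase of exon, the highest member in untreated controls was Phgdh, the first enzyme of serine synthesis, with 258 CPM per kb in sgCT, 283 CPM per kb in NMuMG pLKO and 192 CPM per kb in 4T1 pLKO cells. Atf4 itself was among the highest 3 in each, at 146, 112 and 145 CPM per kb in the same order of lines.

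Library totals, in units of 1e+06 counts, ran from 16.2 to 21.9 in experiment 1, from 15.6 to 22.7 in experiment 2 and from 22.02 to 31.1 in experiment 3. The targeted genes were looked at first. In untreated cells Pbrm1 stood at 28.3 ± 1.78 CPM in 4T1 shPBRM1 cells against 236 ± 3.204 CPM in 4T1 pLKO cells, but at 97.2 ± 3.37 CPM in NMuMG sgPBRM1 cells against 115 ± 0.3698 CPM in sgCT cells (mean ± SD, n = 3), and an edited gene can keep its mRNA. Atf3 stood at 12.3 ± 1.44 CPM in untreated shATF3 cells against 9.95 ± 0.8202 CPM in untreated pLKO cells, a log2 difference of 0.31 that did not pass (adjusted p = 0.106), and at 17.8 ± 0.9298 CPM in libraries labelled ATF3 knockdown against 26.9 ± 2.22 CPM in pLKO cells at 24 h, where the difference passed (−0.59, SE 0.138). Since the untreated level goes against the label, these are called the libraries labelled ATF3 knockdown. Replicate 2 of these libraries at 72 h stood apart from the other 2, with Atf4 at 181 CPM beside 235 and 225 CPM in replicates 1 and 3, and replicate 1 of the untreated ones stood apart to a lesser degree (chi-square per degree of freedom over all genes 10.6 and 10.9 against the other 2, which differed by 3.86). By this measure replicate 2 of NMuMG pLKO at 72 h stood at 8.46 and 14.5, where the others differed by 5.44. Replicate 3 of the libraries labelled ATF3 knockdown at 48 h stood at 8.52 and 8.55 (others 4.22). Replicate 1 of untreated NMuMG pLKO stood at 5.13 and 4.95 (others 2.74). Replicate 2 of untreated 4T1 pLKO stood at 6.18 and 5.81 (others 1.88). Some members share exon bases with a neighbour, among them Aars with Exosc6 on the same strand (14.3% of its exon bases) and Psph with Cct6a (10.4%), and their values are uncertain to that extent. Of 8 epithelial markers, 6 reached 1 CPM in NMuMG cells and 8 in 4T1 cells, whereas Epcam and Cldn3 stayed below 1 CPM in NMuMG. All 5 endothelial markers stayed below 1 CPM in each group. Of 6 fibroblast markers only Col1a1 and Pdgfra reached 1 CPM, and the summed level of the list over libraries ran from 3.201 to 794 CPM in experiment 1, from 2.19 to 905 CPM in experiment 2 and from 13.4 to 36.4 CPM in experiment 3, with the untreated libraries lowest in every line. Of 5 basal or myoepithelial markers 1 reached 1 CPM (Acta2 in NMuMG, Krt14 in 4T1), with sums of up to 51.0, 132 and 18.1 CPM in experiments 1, 2 and 3. Of 6 leukocyte markers Csf1r alone reached 1 CPM, in NMuMG only, with sums of up to 20.2 and 8.43 CPM in experiments 1 and 2, and of 4 adipocyte markers Cidec alone did so, with sums of up to 2.66 and 1.19 CPM. The part of these markers in the results was not tested. In bulk RNA a lower level in every cell and fewer expressing cells cannot be told apart.

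On mouse build GRCm38 with GENCODE vM21, the members that the results turn on most are Atf4 (ENSMUSG00000042406, chromosome 15, 80255184 to 80257541), Trib3 (ENSMUSG00000032715, chromosome 2, 152337422 to 152344032), Chac1 (ENSMUSG00000027313, chromosome 2, 119351229 to 119354381), Nupr1 (ENSMUSG00000030717, chromosome 7, 126623249 to 126630861), Psat1 (ENSMUSG00000024640, chromosome 19, 15904678 to 15947337), Mthfd2 (ENSMUSG00000005667, chromosome 6, 83305691 to 83325908), Asns (ENSMUSG00000029752, chromosome 6, 7675169 to 7693254) and Cth (ENSMUSG00000028179, chromosome 3, 157894248 to 157925077). Values are counts over the whole gene.

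The promoters of the members were examined for the core letters of the C/EBP-ATF response element, TGATGNAA, on either strand. Each window ran from 250 bases before to 50 bases after a start in RefSeq (GRCm38.p6). These starts can lie away from the gene ends listed above, as for Nupr1 and Psat1. Some genes had several windows and were counted if any held the letters, as with Vldlr. Windows were at hand for 37 of the 45 members, and 13 of them (35.1%) held the letters, against 4.51% of 27025 genes in the same table. They were Nupr1, Trib3, Chac1, Vldlr, Asns, Pycr1, Pck2, Slc1a4, Aars, Gars, Iars, Tars and Yars. The letters were in 0 of 6 windows of the member serine and one-carbon enzymes. Among other genes known as ATF4 or CHOP targets 5 of 14 windows (35.7%) held the letters. The members were listed as genes of the ATF4 programme, so their share is not independent of that choice. No match says only that these letters are not in that window, and a match is a description of the sequence. The sites of the members that the results below turn on are shown here, read 5′ to 3′ on the strand that carries the letters, with TGATGNAA in capitals and 6 bases on each side.
Nupr1: cctgtcTGATGCAAtctggc
Trib3: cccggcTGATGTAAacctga
Chac1: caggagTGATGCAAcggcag
Asns: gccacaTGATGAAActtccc
Pycr1: tgtgtaTGATGCAAtgcaca
Slc1a4: tggagaTGATGCAAcgcagg
Tars: accagcTGATGCAAcgggac
Yars: ctcagcTGATGCAAcccgac
The promoters of Chac1 and Asns are given with more context, since both genes were higher in sgPBRM1 than in sgCT cells at 48 h and lower in untreated 4T1 shPBRM1 than in untreated 4T1 pLKO cells. Both sequences are the 250 bases before the start on the gene's strand, with the letters in capitals. In Chac1 they lie on the opposite strand and therefore read TTGCATCA, starting at −193, and in Asns they lie on the gene's strand, starting at −23.
Chac1, chr2:119350992-119351241, + strand: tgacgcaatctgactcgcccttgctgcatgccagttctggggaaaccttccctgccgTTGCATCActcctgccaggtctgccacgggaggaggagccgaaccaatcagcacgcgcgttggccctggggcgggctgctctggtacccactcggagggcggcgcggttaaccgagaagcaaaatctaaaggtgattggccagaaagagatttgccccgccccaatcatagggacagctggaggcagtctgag
Asns, chr6:7693210-7693459, − strand: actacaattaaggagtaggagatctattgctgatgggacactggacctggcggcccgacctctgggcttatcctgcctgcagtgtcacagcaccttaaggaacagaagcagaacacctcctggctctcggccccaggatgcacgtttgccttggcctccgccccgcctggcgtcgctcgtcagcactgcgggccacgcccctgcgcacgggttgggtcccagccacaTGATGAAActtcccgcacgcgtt

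**Figure D1:**
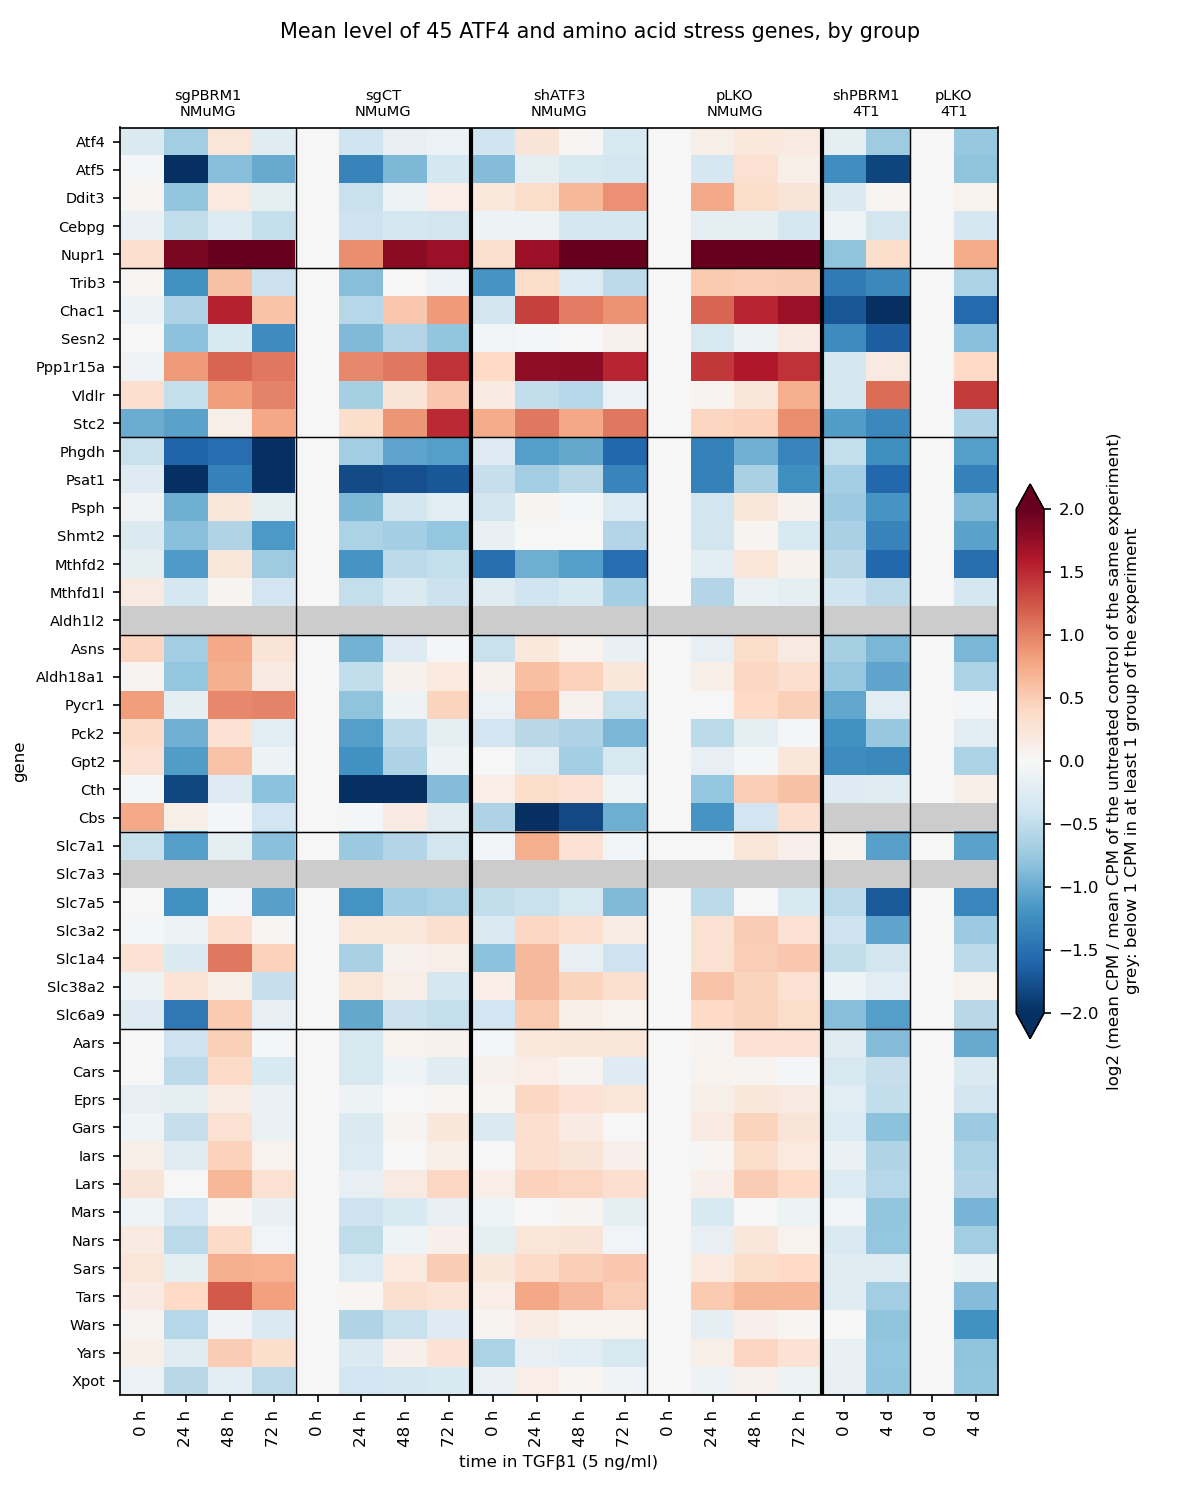
Mean level of each member in each of the 20 groups, as the log2 ratio to the untreated control of the same experiment, with rows grouped by role and times running left to right within each line. The strip of red cells at 48 h in sgPBRM1 cells, the blue serine enzyme rows (Phgdh, Psat1) in nearly every TGFβ1 group and the blue 4T1 columns are the patterns described below.

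The first comparison asked how these genes responded to TGFβ1 in control NMuMG cells. After 24 h, 36 of 44 members were lower in sgCT cells and 5 were higher, where 29.5% of all genes tested passed lower and 29.9% higher. The members' median log2 fold change was −0.49, against −0.004905 over all genes. All 6 tested serine and one-carbon enzymes fell, as did 12 of 13 tRNA synthetase and export genes, whereas Nupr1 and the phosphatase subunit gene Ppp1r15a rose. Fewer members were below their untreated level later: 13 members were higher and 22 lower at 48 h (all genes, 65.5% passed), and 17 higher and 21 lower at 72 h (69.3%). Scaling by library totals alone moved the median of all genes by up to −0.19 in the NMuMG time comparisons and gave 13 higher and 25 lower members at 72 h.

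Psat1, the aminotransferase of serine synthesis, had 251, 254 and 259 CPM in sgCT cells at 24 h, against 863, 911 and 867 CPM at 0 h. The libraries of the 2 times were far apart, and the log2 fold change was −1.79 (SE 0.0288, adjusted p = 4.07e-51). At 72 h Psat1 stayed low, at 275, 270.4 and 269 CPM (−1.70, SE 0.0291). Cth, the cystathionine lyase that makes cysteine, had 4.25, 4.05 and 3.31 CPM at 24 h against 14.6, 15.8 and 16.51 CPM at 0 h (−2.02, SE 0.114, adjusted p = 1.72e-23), and Chac1, which degrades glutathione, had 25.8, 29.4 and 28.3 CPM at 24 h against 39.1, 43.9 and 41.3 CPM at 0 h (−0.57, SE 0.0604). Chac1 then turned: its 72 h libraries, at 76.3, 74.3 and 74.8 CPM, lay above all those of 0 h (0.86, SE 0.0541). Asns, asparagine synthetase, fell by 24 h (−0.95, SE 0.0406) and had 153 ± 1.28 CPM at 72 h against 155 ± 11.9 CPM at 0 h, a difference of −0.02 that did not pass (adjusted p = 0.745). The transporter gene Slc7a5, the light chain of the large neutral amino acid transporter, fell by 24 h (−1.19, SE 0.0407), while its partner Slc3a2 rose (0.20, SE 0.0303). Atf4 fell less, to 258, 265 and 257 CPM at 24 h against 342, 346 and 342 CPM at 0 h (−0.40, SE 0.0286). Beyond the members, the cystine transporter gene Slc7a11 fell (−3.59, SE 0.187), and in a list of ATF6 and XBP1 targets of the unfolded protein response 9 of 12 genes rose and 1 fell.

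Nupr1, a small chromatin-associated stress factor, went the other way. It had 134, 143 and 146 CPM in sgCT cells at 72 h against 41.1, 43.7 and 43.7 CPM at 0 h (1.72, SE 0.0424). Ppp1r15a, whose product recruits a phosphatase to reverse eIF2 phosphorylation, had 36.4, 36.5 and 34.7 CPM at 72 h against 13.7, 12.9 and 13.02 CPM at 0 h (1.44, SE 0.0727). Both rose at every time tested in sgCT cells. The secreted glycoprotein gene Stc2 rose by 72 h from a low level, to 11.45 ± 1.43 CPM at 72 h against 4.06 ± 0.719 CPM at 0 h (1.49, SE 0.139).

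The control line of the second NMuMG experiment, pLKO, gave a different early response. At 24 h, 14 of 44 members were higher and 17 lower (all genes, 53.4% passed), at 48 h 28 were higher and 6 lower (53.8%), and at 72 h 26 were higher and 6 lower (58.0%). With library totals alone the counts were 8 higher and 19 lower at 24 h, 18 and 9 at 48 h and 17 and 10 at 72 h, beside 4 and 36 in sgCT cells at 24 h. The lower count at 48 h was 3 without replicate 2 or 3 of untreated pLKO or without replicate 1 of pLKO at 48 h. Chac1 had 62.2, 66.9 and 63.2 CPM at 24 h against 26.5, 28.9 and 30.4 CPM at 0 h (1.16, SE 0.0968), whereas it fell at the same time in sgCT cells. Trib3, a pseudokinase induced by ATF4 that restrains it, had 35.9, 37.7 and 35.8 CPM at 24 h against 24.4, 25.9 and 25.8 CPM at 0 h in pLKO (0.52, SE 0.104), and 20.9, 20.2 and 16.9 CPM at 24 h against 34.2, 35.4 and 34.9 CPM at 0 h in sgCT (−0.85, SE 0.0673). At 24 h, 8 members passed in opposite directions in the 2 controls (Chac1, Ddit3, Gars, Lars, Sars, Slc1a4, Slc6a9 and Trib3), which is 18.2% of 44 members against 1.01% of 13965 genes tested in both experiments. At 48 h the shares were 20.5% and 1.65%, and at 72 h 13.6% and 1.41%. The 2 experiments have separate tables, so the difference between their responses was not tested. Serine synthesis fell in both: Phgdh had 269, 282 and 274 CPM at 24 h against 696, 710.1 and 705 CPM at 0 h in pLKO (−1.36, SE 0.0408), and Psat1 had 224, 238 and 266 CPM at 24 h against 625, 622 and 604 CPM at 0 h (−1.35, SE 0.0501).

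**Figure D2:**
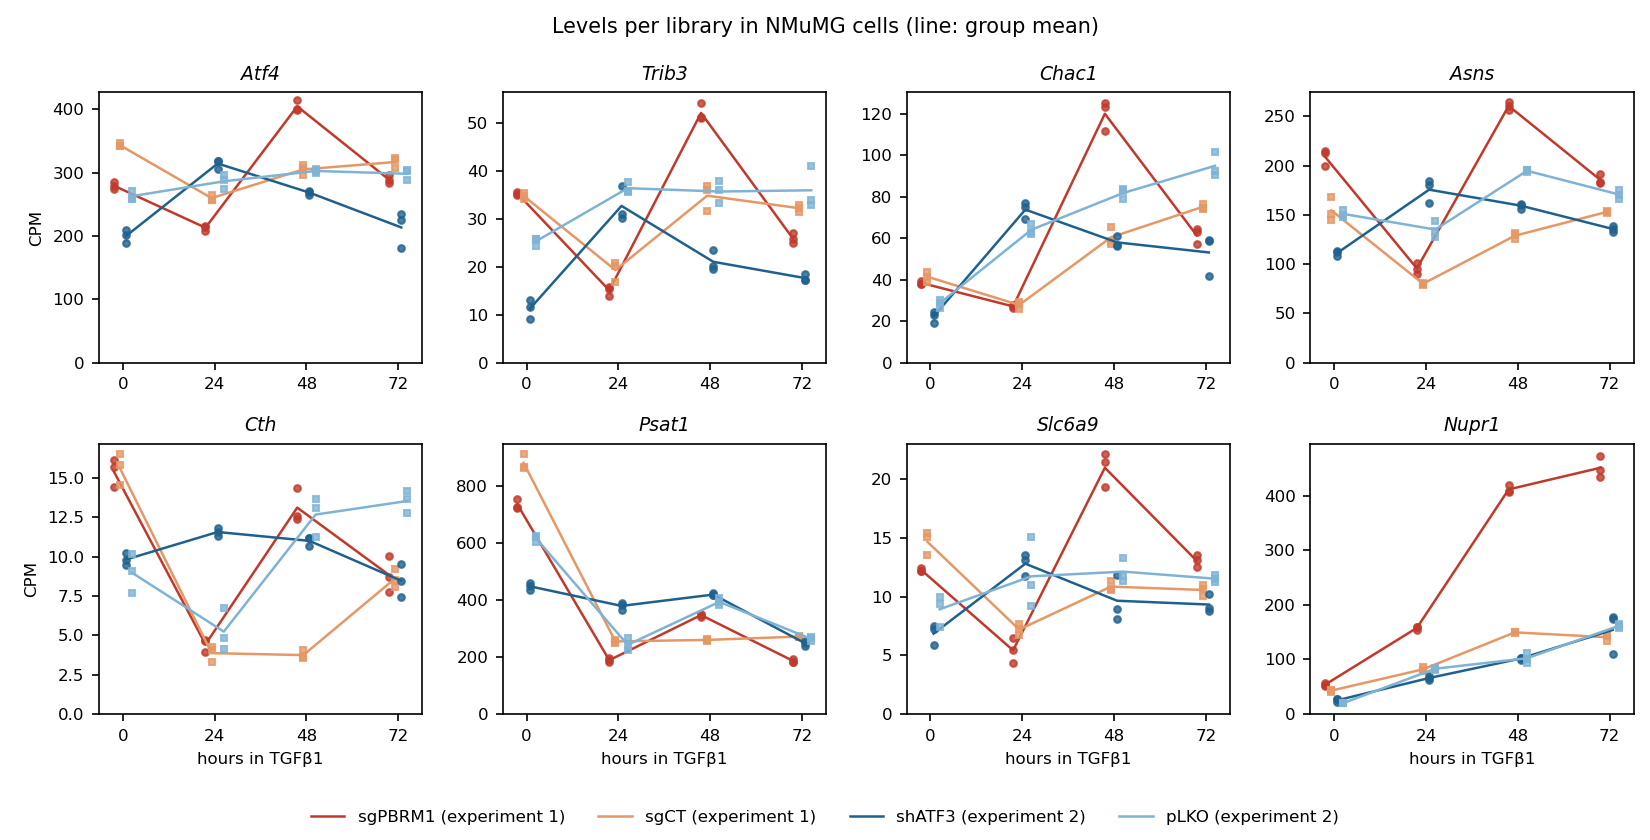
Level of 8 members in every NMuMG library (points, CPM) over hours in TGFβ1, with lines through group means, for sgPBRM1 and sgCT cells of experiment 1 and shATF3 and pLKO cells of experiment 2. Trib3, Chac1, Asns and Slc6a9 have their highest group mean of the 4 lines in sgPBRM1 cells at 48 h, Psat1 lies below its 0 h level in sgCT and pLKO cells at 24 h, and Nupr1 reaches 451 CPM in sgPBRM1 cells at 72 h against 141 CPM in sgCT cells.

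In NMuMG cells the PBRM1 comparison was made at each time. Without TGFβ1 the members were split: 15 of 44 were higher in sgPBRM1 cells and 13 lower (all genes, 45.1% passed), with a median of −0.00528. The enzymes outside serine synthesis were higher in 5 of 7 and lower in 0, with Pycr1, of proline synthesis, at 23.97, 23.9 and 20.6 CPM in sgPBRM1 cells against 12.3, 13.8 and 12.4 CPM in sgCT cells (0.83, SE 0.0866, adjusted p = 3.49e-12), and Asns at 213, 215 and 199 CPM in sgPBRM1 cells against 145, 168 and 151 CPM in sgCT cells (0.43, SE 0.0371). Serine and one-carbon enzymes were lower in 4 of 6 and higher in 1, with Phgdh at 484, 454 and 473 CPM in sgPBRM1 cells against 633, 626 and 665 CPM in sgCT cells (−0.45, SE 0.0283). Stc2 stood at 2.19, 2.14 and 1.79 CPM in sgPBRM1 cells against 4.800, 3.36 and 4.02 CPM in sgCT cells (−0.997, SE 0.183). In these genes the libraries of the 2 lines did not overlap.

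At 48 h of TGFβ1 most members were higher in sgPBRM1 than in sgCT cells. The count was 35 of 44 higher and 3 lower, with a median of 0.41, where 24.4% of all genes passed higher and 25.6% lower. By role, 3 of 5 regulators were higher, 4 of 6 stress effectors, 4 of 6 serine and one-carbon enzymes, 6 of 7 other enzymes, 5 of 7 transporters and all 13 synthetase and export genes. The 3 lower members were Stc2, Phgdh and Cbs. Cbs, the cystathionine synthase upstream of Cth, stood at −0.20 and did not pass in 6 of the alternative settings. The epithelial markers summed to between 7106 and 7306 CPM in sgPBRM1 and between 9560 and 9900 CPM in sgCT libraries at this time, and the fibroblast markers to between 197 and 214 CPM in sgPBRM1 and between 202 and 218 CPM in sgCT libraries.

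The largest difference at 48 h was that of Cth, with 12.6, 12.4 and 14.3 CPM in sgPBRM1 cells against 4.04, 3.54 and 3.65 CPM in sgCT cells (1.81, SE 0.121, adjusted p = 6.42e-20). Nupr1 followed, with 406, 419 and 409 CPM in sgPBRM1 cells against 149, 149 and 150.3 CPM in sgCT cells (1.46, SE 0.0333). Among the enzymes, the alanine aminotransferase gene Gpt2 (1.19, SE 0.0476), Pycr1 (1.06, SE 0.0875), Asns with 261, 265 and 256 CPM in sgPBRM1 cells against 129.6, 125 and 132 CPM in sgCT cells (1.02, SE 0.0374) and the mitochondrial phosphoenolpyruvate carboxykinase gene Pck2 (0.82, SE 0.0377) were higher. Chac1 had 112, 125 and 123 CPM in sgPBRM1 cells against 65.6, 58.7 and 57.2 CPM in sgCT cells (0.99, SE 0.0486), and Trib3 had 51.3, 54.2 and 51.1 CPM in sgPBRM1 cells against 36.9, 31.8 and 35.99 CPM in sgCT cells (0.58, SE 0.0598). All sgPBRM1 libraries lay above all sgCT libraries for each of these genes. Among transporters, the neutral amino acid transporter gene Slc1a4 (0.97, SE 0.0548), the glycine transporter gene Slc6a9 (0.95, SE 0.0898) and Slc7a5 (0.65, SE 0.0395) were higher. Slc6a9 shares 27.8% of its exon bases with Ccdc24 on the opposite strand, and the sources used here do not give whether the NMuMG libraries keep strand, so its values are uncertain. Atf4 mRNA had 399, 415 and 401 CPM in sgPBRM1 cells against 312, 296 and 308 CPM in sgCT cells (0.41, SE 0.0283), and Ddit3, which encodes the ATF4 partner and target CHOP, had 19.1, 17.48 and 19.4 CPM in sgPBRM1 cells against 13.9, 15.4 and 16.2 CPM in sgCT cells (0.30, SE 0.0884), a difference that was lost in 1 alternative. The mitochondrial one-carbon gene Mthfd2 (0.75, SE 0.0435) and Psat1 (0.42, SE 0.0295) were higher too.

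The member synthetase genes parted from the other synthetases at this time. Of the 13 member genes all 13 were higher, from Xpot at 0.11 to Tars, threonyl-tRNA synthetase, at 0.90, with a median of 0.41. Xpot did not pass in 4 of the alternative settings. Tars had 358, 373 and 367 CPM in sgPBRM1 cells against 204, 189.7 and 193 CPM in sgCT cells. Of 8 cytosolic synthetase genes outside the members 2 were higher and 3 lower (median 0.004801), and of 17 mitochondrial synthetase genes 1 was higher and 5 lower (median 0.00387). The letters TGATGNAA were in 5 of the 9 member windows at hand, in 0 of 5 windows of the other cytosolic synthetases and in 0 of 15 of the mitochondrial ones. Of the members with the letters all 13 were higher (median 0.82), against 16 of 24 tested members whose window lacks them, where 3 were lower (median 0.29). These member groups were compared by counts and medians only. The members and lists were chosen with earlier results of these data known, so the split is a description and not independent support.

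**Figure D3:**
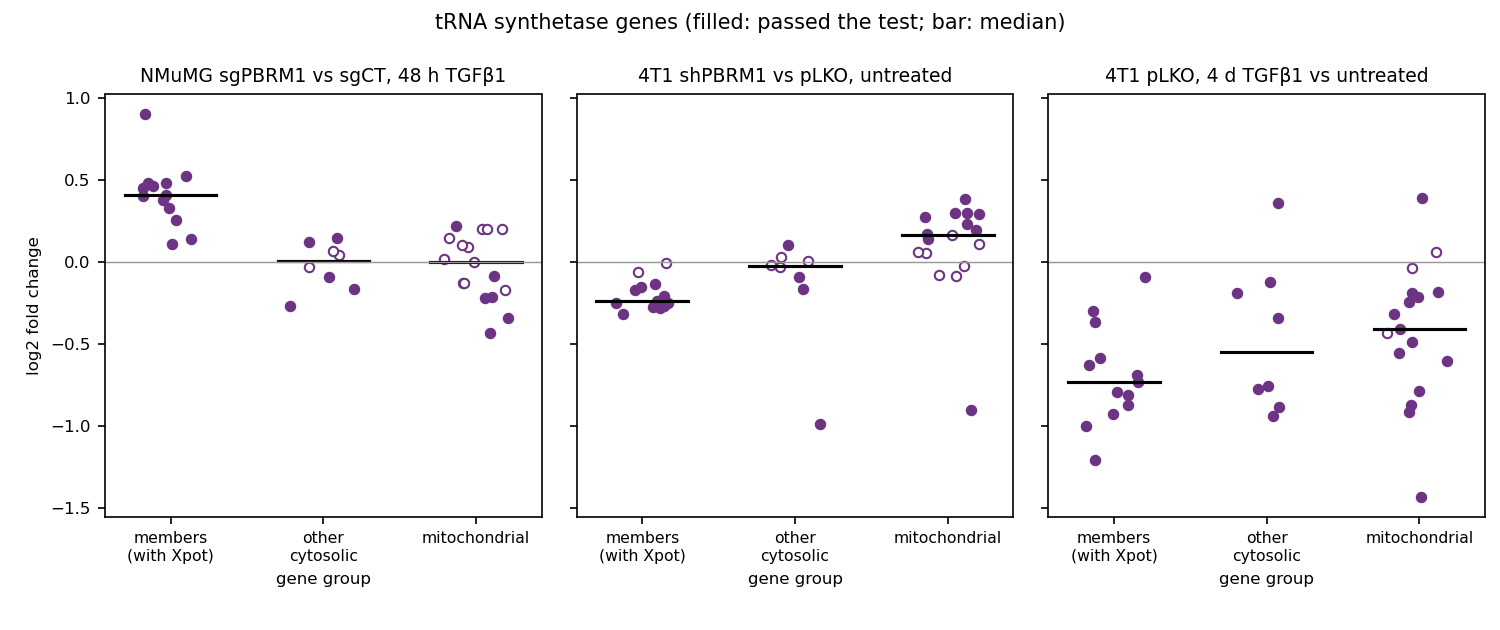
Log2 fold change of the 13 member synthetase and export genes, 8 other cytosolic and 17 mitochondrial synthetase genes (filled, passed; open, not passed; bar, median) in 3 comparisons. The members stand above the other groups in sgPBRM1 against sgCT cells at 48 h, whereas all 3 groups lie mostly below 0 in 4T1 pLKO cells after TGFβ1.

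Other lists at the same time were described alongside. Of 17 other genes known as ATF4 or CHOP targets 11 were higher and 3 lower, with Slc7a11 at 1.47, the neuregulin gene Nrg1 at 1.15, the stress cytokine gene Gdf15 at −1.71 and Atf3 at −1.30. Genes for eIF2, its kinases and its exchange factor were higher in 3 and lower in 3 of 14. Of 12 ATF6 and XBP1 targets 3 were higher and 7 lower. Folate and one-carbon enzymes outside the members were higher in 2 and lower in 6 of 10, with the cytosolic Shmt1 at −0.86.

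At the neighbouring times the members were not shifted this way. At 24 h 9 were higher and 17 lower in sgPBRM1 cells (all genes, 46.8% passed), and at 72 h 8 were higher and 23 lower (49.9%). At 72 h Trib3 had 27.1, 25.8 and 24.99 CPM in sgPBRM1 cells against 32.3, 32.99 and 31.6 CPM in sgCT cells (−0.32, SE 0.06799), and Chac1 had 62.9, 64.3 and 57.1 CPM in sgPBRM1 cells against 76.3, 74.3 and 74.8 CPM in sgCT cells (−0.29, SE 0.0519). Phgdh stood at 154, 152 and 152 CPM in sgPBRM1 cells against 302, 288 and 311 CPM in sgCT cells (−0.98, SE 0.03198). Nupr1 remained higher, with 434, 473 and 448 CPM in sgPBRM1 cells against 134, 143 and 146 CPM in sgCT cells (1.68, SE 0.03404, adjusted p = 8.78e-45).

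Whether the change over time in TGFβ1 differed was tested as an interaction, the change from 0 h in sgPBRM1 cells minus that in sgCT cells. At 48 h 35 members had a positive interaction and 1 a negative one, where 10.8% and 13.5% of all genes did. The largest was Cth at 1.83 (SE 0.153, adjusted p = 3.33e-15), followed among members with uncontested strand by Nupr1 (1.13, SE 0.0579) and Chac1 (1.10, SE 0.0756). The negative one was Cbs (−0.97, SE 0.118). All 13 synthetase and export genes had a positive interaction, beside 0 positive and 0 negative among 8 other cytosolic and 0 and 1 among 17 mitochondrial synthetases. At 24 h 4 members were positive and 14 negative (all genes, 18.4% either way), with the largest for Atf5, an ATF4-like factor (−0.65, SE 0.1003), and at 72 h 4 were positive and 19 negative (27.4%), with the largest for Nupr1 (1.35, SE 0.0584). The sgPBRM1 responses themselves were 4 higher and 37 lower at 24 h (all genes, 59.7%), 28 and 12 at 48 h (67.9%) and 10 and 23 at 72 h (71.1%; 7 and 31 with library totals alone).

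**Figure D4:**
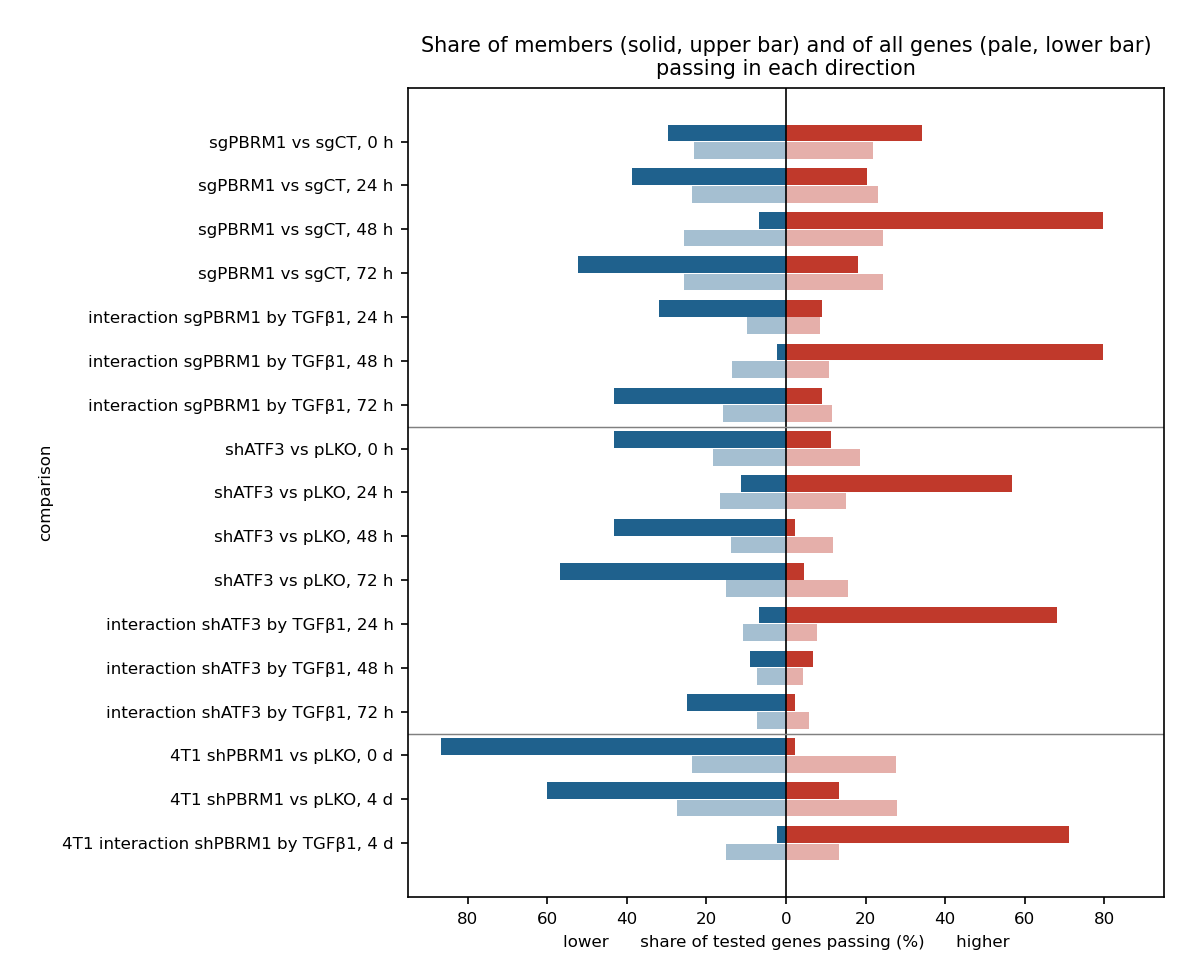
Share of the tested members (solid, upper bar of each row) and of all genes tested (pale, lower bar) that passed higher (red, right) or lower (blue, left) in each comparison between lines and in each interaction. The members passed mostly higher in sgPBRM1 against sgCT cells at 48 h and mostly lower in 4T1 shPBRM1 against pLKO cells.

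The libraries labelled ATF3 knockdown were set against pLKO at each time. Without TGFβ1 5 of 44 members were higher than in pLKO cells and 19 lower (all genes, 37.0% passed), and the lower ones included all 6 tested serine and one-carbon enzymes. At 24 h 25 were higher and 5 lower (31.8%), at 48 h 1 and 19 (25.6%), and at 72 h 2 and 25 (30.5%). The interaction at 24 h was positive for 30 members and negative for 3 (all genes, 7.74% and 10.9%), and all 6 serine and one-carbon enzymes were among the positive ones. At 48 h the counts were 3 and 4 (11.6% either way) and at 72 h 1 and 11 (12.9%). At 72 h, where replicate 2 stood apart, leaving it out gave 2 higher and 24 lower members against pLKO, and 2 positive and 12 negative interactions. Without replicate 1 of the untreated libraries labelled ATF3 knockdown, 5 members were higher and 17 lower than in untreated pLKO cells, and the interaction counts were 30 positive and 3 negative at 24 h, 2 and 4 at 48 h and 1 and 9 at 72 h. The higher members without TGFβ1 numbered 2 without replicate 3 of untreated pLKO and 3 without replicate 3 of the untreated libraries labelled ATF3 knockdown. The single higher member at 48 h became 0 without replicate 2 of pLKO and 2 without replicate 3 of the libraries labelled ATF3 knockdown, and the higher members at 72 h became 1 without replicate 2 or 3 of pLKO or replicate 1 of the libraries labelled ATF3 knockdown. The negative interactions at 72 h numbered 7 without replicate 1 of untreated pLKO or replicate 3 of the untreated libraries labelled ATF3 knockdown.

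Trib3 had 9.03, 13.1 and 11.6 CPM in untreated libraries labelled ATF3 knockdown against 24.4, 25.9 and 25.8 CPM in untreated pLKO cells (−1.17, SE 0.113, adjusted p = 3.56e-09). At 24 h it had 36.9, 30.2 and 31.1 CPM in libraries labelled ATF3 knockdown against 35.9, 37.7 and 35.8 CPM in pLKO cells, so that the groups overlapped, and the difference of −0.15 did not pass (adjusted p = 0.287). By 72 h Trib3 was again lower, at 17.2, 17.2 and 18.6 CPM in libraries labelled ATF3 knockdown against 33.95, 41.1 and 32.97 CPM in pLKO cells (−1.03, SE 0.109). Psat1 had 366, 381 and 391 CPM at 24 h in libraries labelled ATF3 knockdown against 224, 238 and 266 CPM in pLKO cells (0.64, SE 0.0498), while before TGFβ1 it had 459, 448 and 436 CPM in libraries labelled ATF3 knockdown against 625, 622 and 604 CPM in pLKO cells (−0.46, SE 0.0491). Its interaction at 24 h was 1.10 (SE 0.0699, adjusted p = 5.33e-12). Other positive interactions at 24 h were those of Slc1a4 (1.17, SE 0.109), Trib3 (1.02, SE 0.153), Cth (1.02, SE 0.196) and Atf5 (1.001, SE 0.148).

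Mthfd2, Yars and Cbs were lower in the libraries labelled ATF3 knockdown at every time. Mthfd2 had 33.9, 37.2 and 33.4 CPM untreated against 107, 95.6 and 94.9 CPM in pLKO cells (−1.51, SE 0.0687, adjusted p = 1.04e-15), and 34.8, 34.5 and 34.6 CPM in libraries labelled ATF3 knockdown against 105, 106 and 105 CPM in pLKO cells at 72 h (−1.60, SE 0.0697). Yars, tyrosyl-tRNA synthetase, had 51.6, 54.1 and 50.8 CPM in libraries labelled ATF3 knockdown against 79.3, 80.99 and 81.1 CPM in pLKO cells, both untreated (−0.62, SE 0.04997), and stood at −0.28, −0.63 and −0.60 at 24, 48 and 72 h. Of the 12 member synthetases Yars was the only one that passed lower at all 4 times. Cbs had 0.8796, 1.46 and 0.885 CPM at 24 h against 7.06, 7.502 and 6.42 CPM in pLKO cells (−2.70, SE 0.2104, adjusted p = 7.60e-11) and was lower at the other times as well. Vldlr, a lipoprotein receptor gene induced by ATF4, passed lower from 24 h on (log2 fold changes of −0.54, −0.79 and −0.86 at 24, 48 and 72 h), and its untreated difference of 0.17 did not pass (adjusted p = 0.0819). It also had the largest member interactions at 48 h (−0.96, SE 0.106) and 72 h (−1.02, SE 0.105).

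Within these libraries 27 members were higher and 7 lower at 24 h of TGFβ1 than at 0 h (all genes, 49.3%). The counts were 28 and 6 at 48 h (48.6%) and 20 and 12 at 72 h (54.4%). With library totals alone the later splits were 21 and 10 at 48 h and 14 and 16 at 72 h. Nupr1 (1.39, SE 0.1204) and Ppp1r15a (1.37, SE 0.109) rose by 24 h here too.

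In 4T1 cells most of the set was lower after 4 d of TGFβ1 than untreated. In pLKO cells 36 of 45 members fell over 4 d and 5 rose, with a median of −0.64, where 35.4% of all genes passed lower and 39.1% higher. All 7 serine and one-carbon enzymes and all 13 synthetase and export genes fell. The fall of synthetases was not limited to the members in these cells, since 7 of 8 other cytosolic and 13 of 17 mitochondrial synthetase genes fell as well. Chac1 had 12.4, 10.4 and 12.7 CPM after 4 d against 33.4, 36.5 and 34.4 CPM in untreated pLKO cells (−1.56, SE 0.0758, adjusted p = 2.69e-19), Mthfd2 had 46.9, 43.9 and 48.2 CPM after 4 d against 127, 132 and 134 CPM untreated (−1.501, SE 0.0509) and Psat1 216, 209 and 227 CPM after 4 d against 549, 556 and 562 CPM untreated (−1.35, SE 0.0428). Atf4 fell as well, to 195, 199 and 214 CPM after 4 d against 329, 349 and 346 CPM untreated (−0.75, SE 0.0325). Among the 5 members that rose were Vldlr (1.41, SE 0.08495), Nupr1 (0.74, SE 0.0505) and Ppp1r15a (0.39, SE 0.07899). Slc38a2, a neutral amino acid transporter gene, passed at only 0.07, a call lost in 9 of 12 alternatives. Cbs also rose by the test, though it stood at only 0.596 CPM after 4 d against 0.186 CPM untreated.

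Untreated shPBRM1 cells had lower levels of nearly the whole set than untreated pLKO cells. Of 45 members 39 were lower and 1 higher, with a median of −0.34, where 23.5% of all genes passed lower and 27.5% higher. All 6 stress effectors, all 7 serine and one-carbon enzymes and 11 of 13 synthetase and export genes were lower. Aldh1l2, which oxidises formyl folate in mitochondria, had 1.12, 1.02 and 0.801 CPM in shPBRM1 cells against 6.96, 7.22 and 6.35 CPM in pLKO cells (−2.82, SE 0.179, adjusted p = 3.03e-15). Of its exon bases 14.1% lie under a gene on the opposite strand, and the 4T1 kit keeps strand per the labels. Chac1 had 10.3, 10.2 and 11.51 CPM in shPBRM1 cells against 33.4, 36.5 and 34.4 CPM in pLKO cells (−1.70, SE 0.0766), and Trib3 13.7, 13.6 and 14.5 CPM in shPBRM1 cells against 37.3, 37.2 and 37.3 CPM in pLKO cells (−1.42, SE 0.0604). No shPBRM1 library reached the lowest pLKO library in any of these genes. The growth-restraining stress gene Sesn2 (−1.26, SE 0.0868), Gpt2 (−1.26, SE 0.0584), Atf5 (−1.25, SE 0.0458) and Pck2 (−1.21, SE 0.0496) were also more than 2-fold lower. Atf4 mRNA differed less, with 300.2, 301 and 300.4 CPM in shPBRM1 cells against 329, 349 and 346 CPM in pLKO cells (−0.18, SE 0.0318). The single higher member was Cbs, at 0.508 CPM in shPBRM1 cells against 0.186 CPM in pLKO cells, a low level, and this call was lost without replicate 3 of untreated pLKO. All 13 members with TGATGNAA in their promoter window were lower (median −0.50), as were 20 of the 24 without (median −0.40). Outside the members, Slc7a11 stood at −2.18 and 13 of 15 other ATF4 or CHOP targets were lower with 0 higher, while mitochondrial synthetases were higher in 9 and lower in 1 of 17.

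After 4 d of TGFβ1 the gap was narrower. In shPBRM1 cells 8 members were higher and 30 lower at 4 d than untreated (all genes, 70.0%). Against pLKO cells at 4 d 6 members were higher and 27 lower (55.2%). Without replicate 1 of shPBRM1 at 4 d 3 members were higher at that time. The interaction was positive for 32 members and negative for 1, with a median of 0.28 (2 negative without replicate 1 of shPBRM1 at 4 d), where 13.2% of all genes were positive and 15.1% negative. All 7 serine and one-carbon enzymes had a positive interaction. The interaction of Aldh1l2 was 0.86, but its call was lost in 7 of 18 alternative settings. Pycr1 had the next largest (0.85, SE 0.135, adjusted p = 7.08e-06). Its level was 10.7, 11.2 and 10.4 CPM at 4 d against 5.88, 6.56 and 5.87 CPM untreated in shPBRM1 cells, and 12.3, 13.1 and 11.6 CPM at 4 d against 11.7, 14.8 and 11.4 CPM untreated in pLKO cells. Chac1 (0.81, SE 0.126), Trib3 (0.76, SE 0.0876) and Asns (0.67, SE 0.0563) followed the same sign. At 4 d Chac1 was still lower in shPBRM1 cells, with 6.68, 6.94 and 5.32 CPM in shPBRM1 cells against 12.4, 10.4 and 12.7 CPM in pLKO cells (−0.89, SE 0.0972), whereas Asns had 122, 109 and 103 CPM in shPBRM1 cells against 108, 111 and 116 CPM in pLKO cells, with overlapping libraries.

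**Figure D5:**
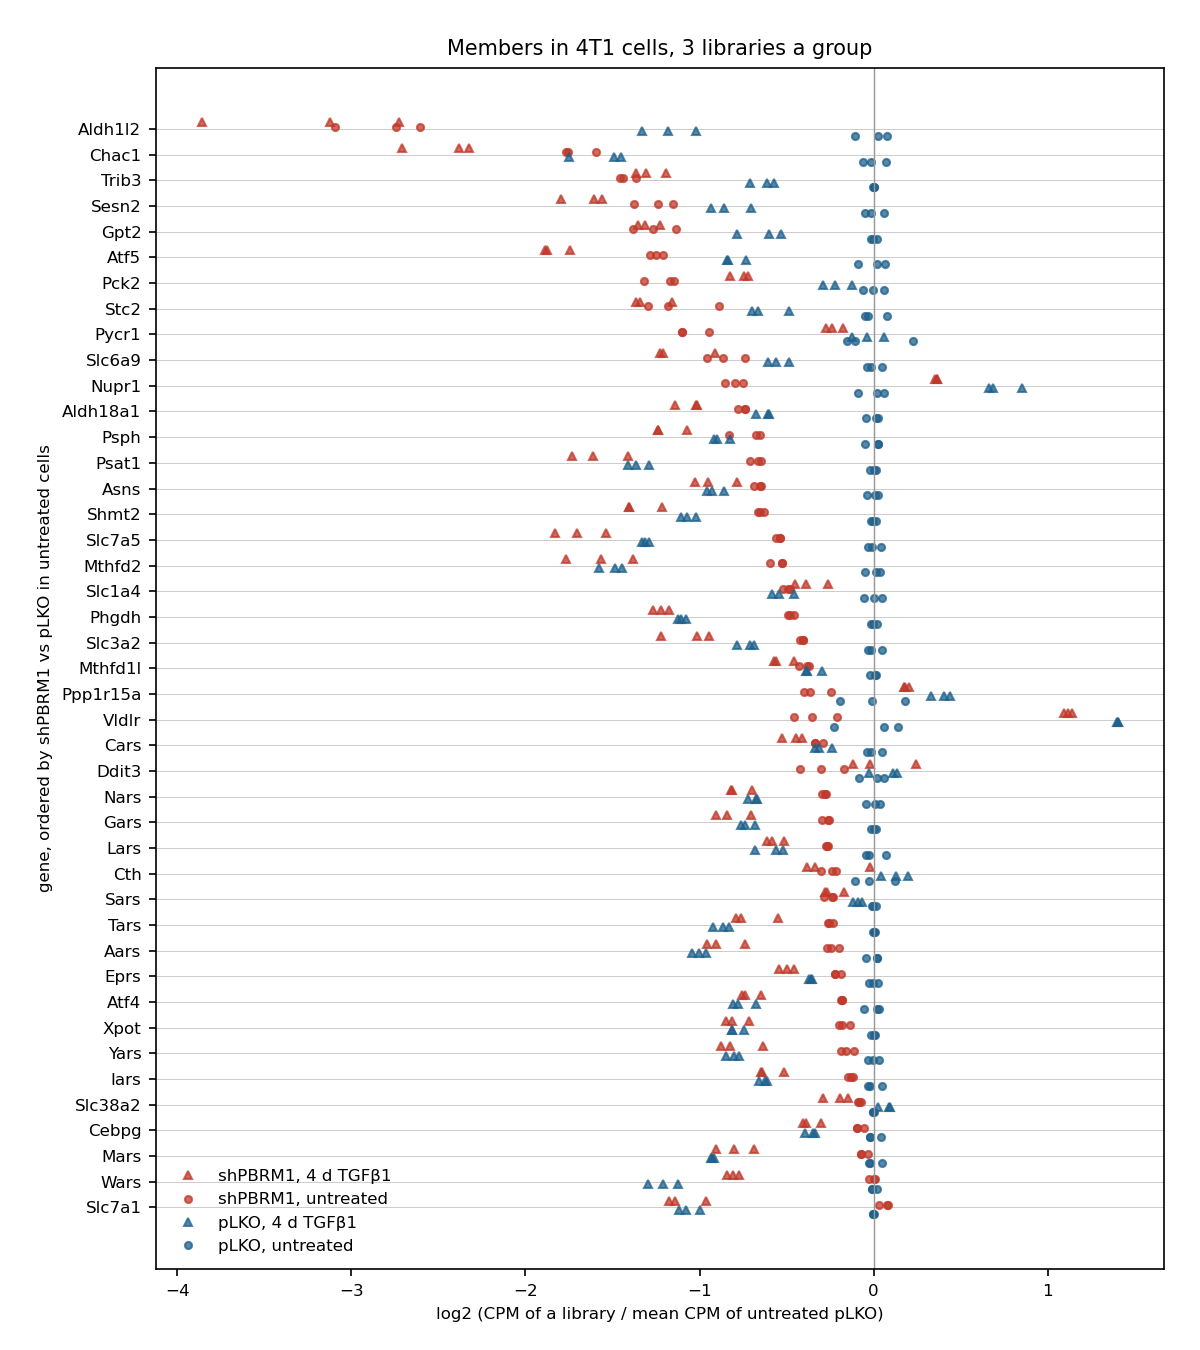
Level of each 4T1 library (points) as the log2 ratio to the mean of untreated pLKO cells, for shPBRM1 (red) and pLKO (blue) with 4 d of TGFβ1 (triangles) and untreated (circles), for the 43 members at 1 CPM or more in untreated pLKO cells. Untreated shPBRM1 libraries lie left of untreated pLKO libraries for most members, with log2 fold changes of −1.70 for Chac1 and −1.42 for Trib3, and the triangles of the 2 lines lie closer together than the circles for members such as Asns and Mthfd2.

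Taking the last time in each of the 6 lines, whose responses share no library, 2 members rose in all 6 (Nupr1 and Ppp1r15a) and 6 fell in all (Cebpg, Mthfd1l, Phgdh, Psat1, Shmt2 and Slc7a5), of 44 tested in all. These are 4.55% and 13.6% of the members, against 11.4% and 9.61% of the 12191 genes tested in every experiment. The 6 that fell comprise 4 of serine and one-carbon metabolism, Slc7a5 and the C/EBP family gene Cebpg, a partner of ATF4. A further 7 members passed in every line but not in 1 direction (Aldh18a1, Cbs, Chac1, Slc38a2, Tars, Vldlr and Yars), which is 15.9% of members against 9.22% of genes. Chac1 was one of them, with 0.86 in sgCT and 1.73 in NMuMG pLKO cells but −1.56 in 4T1 pLKO cells. Among the 7, the call of Slc38a2 in 4T1 pLKO cells was lost in 9 of 12 alternatives, and Cbs stood below 1 CPM there.

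Without TGFβ1, the cells labelled PBRM1 knockout (NMuMG) and PBRM1 knockdown (4T1) had both shared and opposite differences from their controls. Of 44 members tested in both, 11 were lower in both sgPBRM1 and shPBRM1 cells than in their controls, 25% of the members against 8.26% of 12331 genes, and 1 was higher in both (Cbs), 2.27% against 8.57%. A further 14 passed in opposite directions, 31.8% of the members against 12.5% of genes. The 11 were Atf4, Eprs, Gars, Mthfd2, Phgdh, Psat1, Shmt2, Slc38a2, Slc6a9, Stc2 and Xpot. The 14 were higher in NMuMG sgPBRM1 and lower in 4T1 shPBRM1 cells, and Asns, Gpt2, Pck2, Pycr1 and Slc1a4 were among them. Stc2 had the largest shared fall, with −0.997 in NMuMG and −1.12 in 4T1. At the last time 15 members were lower in both, 34.1% of the members against 7.84% of genes. Of their 4T1 calls, that of Gars was lost in 8 of 12 alternatives, of Ppp1r15a in 5, of Nars in 4 and of Phgdh in 1. Another 2 were higher in both (Slc1a4 and Tars), 4.55% against 7.52%, and 5 were opposite, 11.4% against 19.3%. The labelled method of targeting PBRM1, the cell line and the library kit changed together between these experiments and cannot be told apart.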

How the data were processed

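RNA-seq was made from 60 libraries in 20 groups of 3 in 3 experiments. The deposited files hold raw counts per gene from the authors, 1 table an experiment, which were not normalized. The submitters' processing notes name HISAT2, STAR 2.7.10a, Trim Galore 0.6.7, DESeq2, edgeR and build mm10 without saying which was used for which table. Genes were kept with filterByExpr (minimum count 10, minimum total 15), scaled by TMM and tested with edgeR 4.0.16 (quasi-likelihood, 1 coefficient per group, all groups of an experiment in 1 fit), with Benjamini-Hochberg adjustment over all genes. This left 14345, 14983 and 13854 genes. CPM used TMM-scaled totals. Members were matched by symbol, except Mars, listed as Mars1 for 4T1 and matched by gene ID. The fit was run on simulated counts with 1 common spread and few genes changed. Most genes passed in many comparisons here, so that run cannot vouch for the scaling or error control. Alternatives were RLE factors, library totals alone, no filter, DESeq2 1.42.0, only the groups compared, a replicate block and leaving out each library. The labels give the groups and call the replicates biological, so p-values measure the spread between them. These p-values do not measure the spread between independently made knockouts or knockdowns, since 1 labelled line stood for each. The common biological coefficient of variation from edgeR was 2.88%, 7.59% and 2.95% in experiments 1, 2 and 3. Members of every role could be named, those with the largest passing change and 1 CPM or more first, and of other lists at most 4 genes. The members and lists were chosen with earlier results of these data known.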

Additional observations from a re-analysis of the deposited data

Results flagged for a closer look

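The response to TGFβ1 differed by a test of the interaction for some members in each comparison, given here beside the share of all genes. In sgPBRM1 against sgCT cells 18 of 44 members passed at 24 h (all genes, 18.4%), 36 at 48 h (10.8% positive and 13.5% negative) and 23 at 72 h (27.4%). The largest interactions were those of Atf5 (−0.65), Cth (1.83) and Nupr1 (1.35) at these times. In libraries labelled ATF3 knockdown against pLKO 33 of 44 passed at 24 h (all genes, 7.74% positive and 10.9% negative), 7 at 48 h (11.6%) and 12 at 72 h (12.9%). They were led by Cbs (−2.08), Vldlr (−0.96) and Vldlr (−1.02). The count at 48 h is near the share of all genes. In 4T1 shPBRM1 against pLKO cells 33 passed (all genes, 13.2% positive and 15.1% negative). Among members at 1 CPM or more in untreated or treated shPBRM1 cells Pycr1 had the largest (0.85). That of Aldh1l2 was 0.86, but its mean was below 1 CPM in both shPBRM1 groups. The causes were not tested.

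Members also passed in opposite directions between lines, a difference that was not itself tested. Between sgCT and NMuMG pLKO cells there were 8 such members at 24 h (18.2% of 44, against 1.01% of 13965 genes). The counts were 9 at 48 h (20.5% against 1.65%) and 6 at 72 h (13.6% against 1.41%). Over the 3 control lines at their last time 16 members passed in every line without sharing a direction. These are 36.4% of 44 members against 13.3% of 12191 genes. Over all 6 lines 7 did, 15.9% against 9.22%. Both sets include Slc38a2 and Cbs, whose limits in 4T1 pLKO cells are given above.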

How the results depend on the processing

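Of 414 recomputed counts of members passing in either direction, all 414 stayed within 1.5 times the reported count. Of the 828 counts of 1 direction 26 did not, in 12 comparisons, and those from leaving out a library, or from library totals in the time comparisons, stand beside the counts above. Among the rest, higher members of libraries labelled ATF3 knockdown against pLKO went to 3 at 48 h and 1 at 72 h with only the groups compared and to 1 at 72 h without the filter, positive ATF3 interactions at 48 h to 1 without the filter, and higher members in untreated 4T1 shPBRM1 to 2 with library totals. Of 963 member results past the threshold, 800 stayed past it with the same direction under every alternative and 163 did not under at least 1, and 112 that did not pass were past it under at least 1. Leaving out 1 library gave 36 to 38 members passing for sgPBRM1 against sgCT at 48 h, 38 to 40 for untreated 4T1 shPBRM1 against pLKO, and 8 to 14 for the ATF3 interaction at 72 h, where 12 passed. Same-numbered replicates deviated together (r over 0.1) in 0 of 84, 16 of 84 and 1 of 18 pairs of libraries in experiments 1, 2 and 3. In experiment 2 r ran from −0.53 to 0.34, with a median of −0.0082 against −0.0026 for differently numbered libraries. Whether same-numbered libraries belong together in experiment 2 was not settled by this. With the replicate block the counts moved by at most 1, for example 38 for sgPBRM1 against sgCT at 48 h.

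With library totals alone in place of TMM, 87 member log2 fold changes changed sign, of which 15 were past the threshold only with TMM, 11 only with library totals and 61 with neither. The 26 past it in 1 of these fits were changes from 0 h in NMuMG and turned negative: Aldh18a1 −0.00746, Aars −0.0209, Eprs −0.0775, Iars −0.0807 in sgCT at 48 h, then Aars −0.0267, Eprs −0.0792, Iars −0.000256, Nars −0.0178 in sgCT at 72 h, then Mars −0.0502 in sgPBRM1 at 48 h, then Atf4 −0.142, Aldh18a1 −0.0637, Slc3a2 −0.134, Slc1a4 −0.0201, Eprs −0.155, Lars −0.144 in sgPBRM1 at 72 h, then Lars −0.0139 in pLKO at 24 h, then Mars −0.136 in pLKO at 48 h, then Shmt2 −0.0313, Cars −0.124, Sars −0.0231 in libraries labelled ATF3 knockdown at 24 h, then Shmt2 −0.0062, Mars −0.000986, Wars −0.129 in libraries labelled ATF3 knockdown at 48 h, then Aldh18a1 −0.0262, Nars −0.00237, Wars −0.144 in libraries labelled ATF3 knockdown at 72 h. The cause was not tested beyond the shift of the median of all genes.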
